A study of Mus musculus with 12 samples.

Results

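The EphA receptors are tyrosine kinases of the cell surface, and 7 of them were measured here by 10 probes: 3 for Epha7, 2 for Epha5 and 1 each for Epha1, Epha2, Epha3, Epha4 and Epha8. They were chosen by taking every non-control probe whose transcript accession belongs to one of these symbols in a RefSeq gene table, from 39429 probes and 19751 named genes in all. The samples were 12 embryos taken whole on day 9.5 of gestation (E9.5) and freed of the yolk sac, female per the labels and on a mixed C3HeB/FeJ background, from matings between carriers of the whirligig (Whi) allele of Chd7, a chromatin remodeller. The 4 wild-type embryos were Chd7+/+, the 4 heterozygotes Chd7Whi/+ and the 4 homozygotes, called Chd7 knockout in the labels, Chd7Whi/Whi. The mutation was carried in every cell of the embryo, and each embryo was hybridised to a 1-colour Agilent array of its own to ask which genes depend on Chd7 while neural crest cells migrate. RNA came from the whole body, so fewer cells of a type and less RNA per cell cannot be told apart.

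Eph receptors bind ephrins on the surface of neighbouring cells, and EphA receptors bind mainly the ephrin-A ligands, which are held in the membrane by a lipid anchor. Binding signals into both cells and usually drives them apart, although some contacts become adhesive. In the embryo this sorts the cells of adjacent hindbrain segments, keeps streams of neural crest cells separate and steers motor and sensory axons.

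Levels are given as the log2 of the processed signal minus the log2 of the 75th percentile of the same array, so that 0 marks that percentile. Levels of different probes are not compared, because each probe binds with its own strength. A call means an adjusted p under 0.05 in a limma fit over all 27569 tested probes, with Benjamini-Hochberg adjustment, and each group has n = 4 arrays. The median array had 72.7% of its spots well above background, the best 76.4%, and none had a saturated spot. The arrays lay on 3 slides, each of which held all 3 genotypes, but position 1 of the slides held wild-type embryos alone (3 of the 4), and wild-type and heterozygous embryos shared no position.

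Epha3, Epha5 and Epha7 had probes that fell in homozygotes. With limma, 4 of the 10 EphA probes were called lower in homozygotes than in wild type and 0 higher, where 1.22% of all tested probes were called (0.769% lower and 0.446% higher). The receptors were chosen with earlier results of these data known, so the shares over all probes give scale and no independent test. The called probes were the single Epha3 probe, 1 of 2 Epha5 probes and 2 of 3 Epha7 probes. The called Epha3 and Epha5 probes were not well above background on every homozygous array. They entered the test through the genotypes in which they were higher, which favours a fall. Among probes well above background on all 12 arrays, which include every other EphA probe, the count was 2, both of Epha7. In that setting 289 of all 25872 tested probes were called, 110 of them higher. At an unadjusted p under 0.05 there were 5 of 10, the called probes and the third Epha7 probe, against 16.5% of all. The median log2 fold change of the 10 EphA probes was -0.32, against 0.03 over all tested probes, and 7 of the 10 were below 0, against 45.6% of all. In 5 of the 10 the homozygous and wild-type arrays did not overlap, each time with homozygotes lower, against 13.7% of all tested probes (7.74% lower and 5.93% higher). The median and the counts out of 10 include the called Epha3 and Epha5 probes, whose entry into the test favours a fall. Apart from these, the probes without overlap were all of Epha7.

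**Figure D1:**
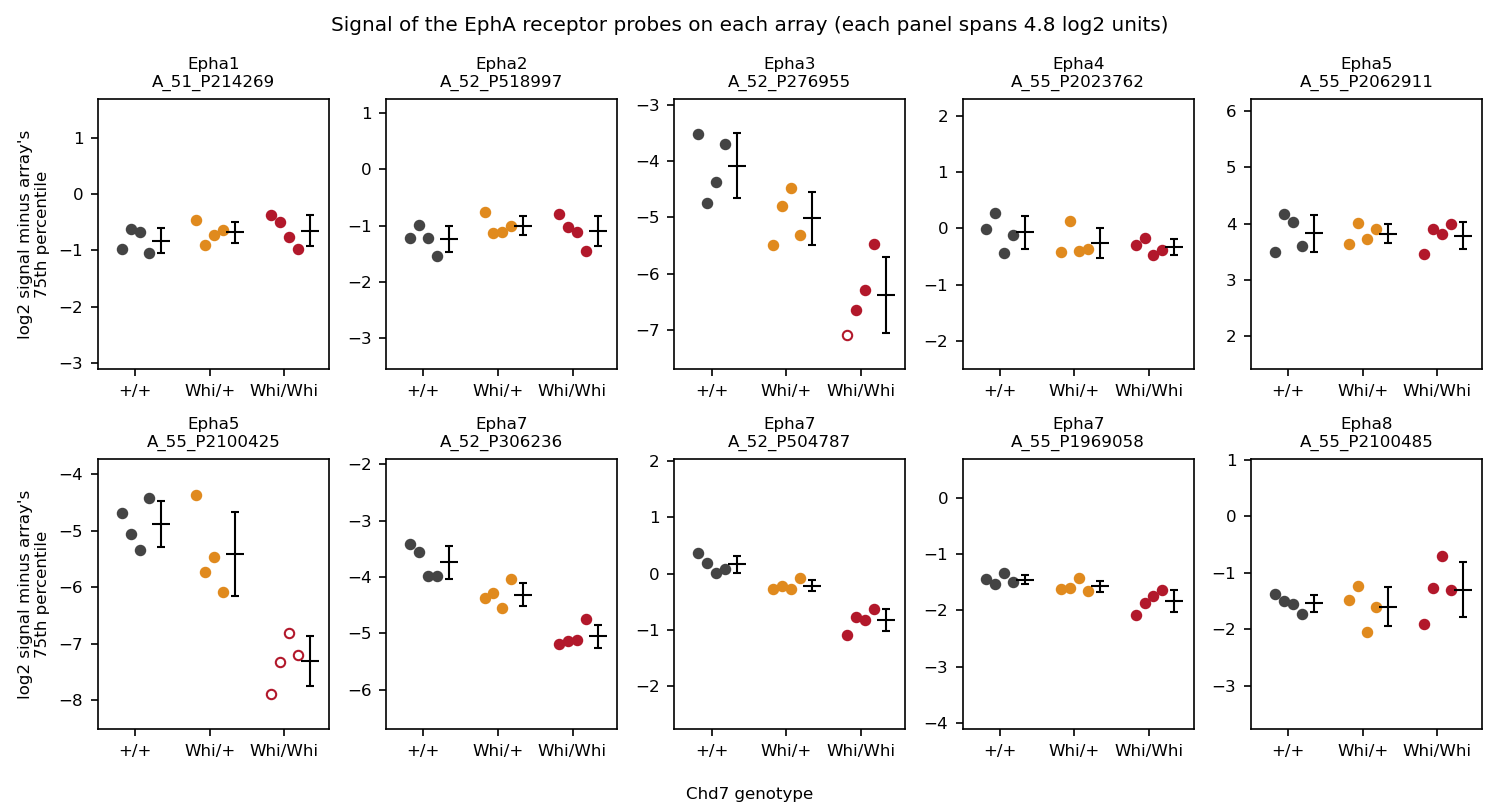
Level of each EphA probe (log2 signal minus the 75th percentile of the array, vertical axis) on the 12 arrays, 1 point per embryo, by Chd7 genotype, with the mean and SD beside each group. Open points were not well above background. The homozygous points lie below all wild-type points for Epha3, 1 Epha5 probe and the 3 Epha7 probes, and overlap the wild-type points for the other 5 probes.

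The 250 bases upstream of the annotated start of the 3 receptors are shown because each had a probe called lower, for Epha5 1 of its 2 probes. They are from RefSeq on build GRCm38.p6, read 5′ to 3′ along the strand of the gene, with every CpG dinucleotide in capitals. The Epha3 window is chr16:63864176-63864425 (minus strand), the Epha5 window chr5:84417383-84417632 (minus strand) and the Epha7 window chr4:28812881-28813130 (plus strand, the first of 2 annotated starts).
Epha3: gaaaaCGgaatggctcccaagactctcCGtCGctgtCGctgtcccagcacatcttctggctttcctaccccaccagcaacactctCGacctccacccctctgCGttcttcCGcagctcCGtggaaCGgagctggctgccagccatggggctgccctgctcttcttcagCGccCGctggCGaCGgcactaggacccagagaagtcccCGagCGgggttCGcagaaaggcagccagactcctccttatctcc
Epha5: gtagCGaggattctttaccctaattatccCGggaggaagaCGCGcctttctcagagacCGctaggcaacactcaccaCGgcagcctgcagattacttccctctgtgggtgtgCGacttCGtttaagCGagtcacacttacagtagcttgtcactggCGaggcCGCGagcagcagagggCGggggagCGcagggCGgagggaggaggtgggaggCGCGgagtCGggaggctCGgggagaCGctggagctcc
Epha7: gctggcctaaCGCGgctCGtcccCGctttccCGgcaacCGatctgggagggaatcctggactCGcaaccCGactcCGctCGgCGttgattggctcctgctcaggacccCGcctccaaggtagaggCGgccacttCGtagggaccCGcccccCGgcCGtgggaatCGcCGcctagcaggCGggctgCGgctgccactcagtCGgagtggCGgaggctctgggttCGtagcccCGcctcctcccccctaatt
These windows held 16, 20 and 25 CpG dinucleotides, against a median of 6 over 32851 windows of the same length. Their G and C content was 62.8%, 62.4% and 69.2%, against a median of 52.4%. Among the receptors without a called probe the count ranged more widely, from 9 each in Epha1 and Epha2 and 14 in Epha4 to 46 in Epha8. On both strands, the E-box CANNTG was in none of the 3 windows shown and in 66.2% of all windows. Among the receptors without a called probe, Epha2 and Epha4 had none either, Epha1 had 2 matches and Epha8 had 1. The homeodomain core TAATTA had 1 match in the Epha5 window (4.84% of all windows hold it), the Hox and Pbx composite TGATNNAT in none of the 3 (7.68% of all), and the GC box GGGCGG in Epha5 (2 matches) and Epha7 (1 match) and not in Epha3 (32.7% of all). CACGTG, which 6.02% of windows hold and which is also a CANNTG, was in none of the 3.

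Epha3, which guides axons of motor neurons and of the retina and acts in the forming heart cushions, fell in homozygotes. In wild-type replicates 1 to 4 its level was -3.51, -4.74, -4.38 and -3.69. In heterozygotes it was -5.49, -4.80, -4.48 and -5.30, and in homozygotes -7.08, -6.64, -6.29 and -5.48. Every homozygote lay below every wild-type embryo, while the heterozygotes overlapped both groups at their edges. The means were -4.08 ± 0.58 (SD, n = 4), -5.02 ± 0.46 and -6.37 ± 0.68. Epha3 fell by 2.29 ± 0.36 on the log2 scale in homozygotes (SE, limma adjusted p = 0.0119), to 20.4% of wild type. The probe was not well above background on homozygous replicate 1 and was on the other 11 arrays. It was dim: its processed signal was 51.1 to 130 in wild type and 12.7 to 35.6 in homozygotes, before scaling. On homozygous replicates 1 to 3 it was 12.7, 13.8 and 15.1. The lowest signal called well above background on those arrays was 11.9, 11.9 and 12.5. The size of the fall is therefore uncertain, and with normexp background correction (offset of 50) the change was -1.08.

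The heterozygous value of Epha3 was -0.94 ± 0.36 against wild type (adjusted p = 0.286), and the homozygous value -1.35 ± 0.36 against heterozygotes (adjusted p = 0.57). The heterozygotes did not differ detectably from the midpoint of the other genotypes (0.21 ± 0.31, adjusted p = 0.899). The call against wild type was lost without wild-type replicate 4 (-2.16, adjusted p = 0.0524).

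Epha7, which helps the neural folds close and marks part of the hindbrain and its neural crest, fell on 2 probes. On the leading probe, A_52_P504787 (NM_010141), levels were 0.36, 0.19, 0.02 and 0.08 in wild type, -0.28, -0.22, -0.27 and -0.07 in heterozygotes and -1.09, -0.77, -0.82 and -0.62 in homozygotes. The genotypes were fully ordered on this probe, with no array of one inside the range of another. The means were 0.16 ± 0.15, -0.21 ± 0.10 and -0.83 ± 0.20 (SD, n = 4). Epha7 fell by 0.99 ± 0.12 in homozygotes (SE, limma adjusted p = 0.00183), to 50.4% of wild type, and this p ranked 31 among all 27569.

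The second called probe, A_52_P306236 (NM_001122889), showed the same order at a far dimmer signal. Its levels were -3.41, -3.56, -3.99 and -3.98 in wild type, -4.38, -4.28, -4.55 and -4.04 in heterozygotes and -5.19, -5.14, -5.12 and -4.75 in homozygotes. It fell by 1.32 ± 0.16 in homozygotes (adjusted p = 0.00263), to 40.2% of wild type. The third probe, A_55_P1969058 (NM_001122889), had levels of -1.45, -1.52, -1.34 and -1.50 in wild type, -1.61, -1.60, -1.43 and -1.65 in heterozygotes and -2.08, -1.87, -1.75 and -1.64 in homozygotes. Homozygotes again lay below wild type on every array, but the change of -0.38 ± 0.11 did not pass (adjusted p = 0.114).

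The 3 Epha7 probes therefore had the same sign and unequal size. On each array, the dim probe minus A_55_P1969058 was -2.28 ± 0.33 (SD) in wild type and -3.22 ± 0.13 in homozygotes, a shift of -0.93 (2-sided exact permutation test, p = 0.0286). The leading probe minus A_55_P1969058 shifted by -0.61 (exact p = 0.0286), and the dim minus the leading probe by -0.33 (exact p = 0.0286). With 4 embryos against 4, 0.0286 is the smallest p this test can give, and 4 such pairs of probes were tested; the fourth, of Epha5, rests on homozygous signals below background and its value is not given. As processed here, these ratios within an array show unequal change and not which probe reports the gene. With normexp background correction (offset of 50) the dim and the leading probe changed by -0.90 and -0.93, so the shift between these 2 depends on background correction. Under the alternatives A_55_P1969058 changed by -0.58 to -0.30.

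Heterozygotes lay between the other genotypes for Epha7 without passing the threshold. Against wild type the leading probe had -0.38 ± 0.12 (adjusted p = 0.248) and the dim probe -0.58 ± 0.16 (adjusted p = 0.246). Homozygotes against heterozygotes gave -0.61 ± 0.12 (adjusted p = 0.214) and -0.74 ± 0.16 (adjusted p = 0.35). From the midpoint of the other genotypes heterozygotes differed by 0.12 ± 0.10 and 0.08 ± 0.14 (adjusted p = 0.798 and 0.914).

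Epha5, a receptor that maps retinal axons onto their target, was called on 1 of its 2 probes, both designed to NM_007937. On A_55_P2100425 levels were -4.68, -5.05, -5.35 and -4.42 in wild type, -4.36, -5.74, -5.47 and -6.09 in heterozygotes and -7.89, -7.34, -6.80 and -7.21 in homozygotes. All 4 homozygotes lay below the other 8 embryos, and heterozygous replicate 1 was the highest of all 12. The probe was well above background on the 8 other arrays and on none of the homozygous ones, where its processed signal was 7.25 to 10.8 and the lowest signal called well above background was 11.9 to 15.5. The homozygous level is therefore uncertain, and the probe entered the test only through the other genotypes. With that lowest signal of each array as a floor, homozygotes were 3.84-fold below wild type and 2.65-fold below heterozygotes. These folds are not minima, because the floor is not this probe's own limit. On homozygous replicate 1 the Epha3 probe, at 12.7 against a floor of 11.9, was not well above background. The limma fit used the measured signals (means -4.88 ± 0.41 in wild type and -7.31 ± 0.45 in homozygotes) and gave adjusted p = 0.00657. Against heterozygotes the difference did not pass (adjusted p = 0.19).

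On the other Epha5 probe, A_55_P2062911, the genotypes overlapped throughout. Its levels were 3.5, 4.17, 4.03 and 3.60 in wild type, 3.64, 4.02, 3.73 and 3.90 in heterozygotes and 3.45, 3.90, 3.81 and 3.99 in homozygotes, at a processed signal of 16377 to 25253. The homozygous change was -0.04 ± 0.17 (adjusted p = 0.937), with a 95% confidence interval of -0.41 to 0.33. With 1 probe per gene, the brighter one, Epha5 was not called. The dim probe in heterozygotes was at -0.54 ± 0.35 against wild type (limma adjusted p = 0.451). Its distance from the midpoint of the other genotypes is not given, because its homozygous signals were not well above background.

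**Figure D2:**
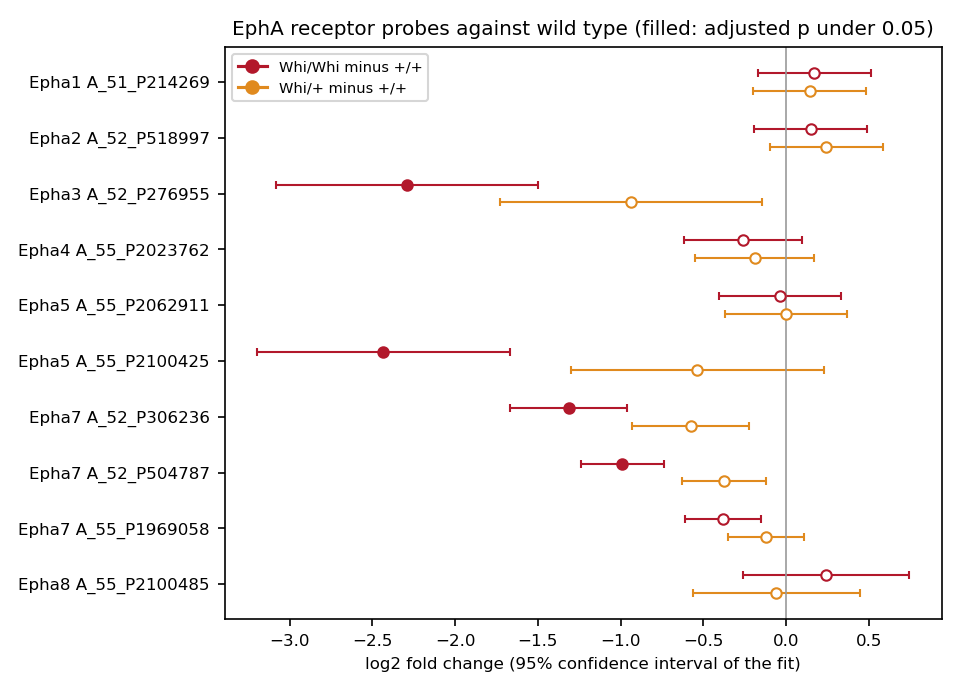
Log2 fold change of each EphA probe in homozygotes (red) and heterozygotes (orange) against wild type, with the 95% confidence interval of the limma fit; filled points had an adjusted p under 0.05. The 4 filled points are all homozygous, and those of Epha3 and Epha7 run from -2.29 to -0.99. That of Epha5 (-2.43) rests on homozygous signals not well above background, and the other Epha5 probe sits at -0.04.

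No call was made for Epha1, Epha2, Epha4 or Epha8, each measured by 1 probe that was well above background on all 12 arrays. Epha4, expressed in alternate hindbrain segments and in limb mesenchyme, had means of -0.07 ± 0.29 in wild type, -0.26 ± 0.27 in heterozygotes and -0.33 ± 0.13 in homozygotes (SD, n = 4). Its homozygous change was -0.26 ± 0.16 (adjusted p = 0.447; 95% interval -0.62 to 0.10), and with array position as a block the sign turned (0.058). Epha8, best known from the midbrain, had -1.54 ± 0.15, -1.60 ± 0.34 and -1.30 ± 0.49, and a change of 0.24 ± 0.23 (adjusted p = 0.62; interval -0.26 to 0.75). Its homozygous arrays, at -1.91, -1.28, -0.70 and -1.30, enclosed the wild-type range.

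Epha1 and Epha2, receptors of epithelia, were slightly higher in value in both mutant genotypes. Epha1 had means of -0.82 ± 0.22, -0.68 ± 0.19 and -0.65 ± 0.27 in wild type, heterozygotes and homozygotes, and a homozygous change of 0.17 ± 0.16 (adjusted p = 0.605; interval -0.17 to 0.51). Epha2 had -1.24 ± 0.23 in wild type and -1.09 ± 0.27 in homozygotes, with heterozygotes from -1.13 to -0.76, and a change of 0.15 ± 0.16 (adjusted p = 0.659; interval -0.19 to 0.49). These intervals exclude a fall of the size measured for Epha3 or Epha7 on its called probes, and they allow smaller changes in either direction.

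In heterozygotes no EphA probe was called by limma against wild type (0 of 10, where 0.00725% of all tested probes were called). At an unadjusted p under 0.05 there were 3 of 10, the Epha3 probe and both called Epha7 probes, all lower, against 15.1% of all tested probes. Of the 10, 8 were below 0 (42.5% of all), and 2, both of Epha7, did not overlap wild type, both lower (6.42% of all tested probes; 2.11% lower and 4.31% higher). Between homozygotes and heterozygotes 0 of 10 were called (0.0109% of all) and 5 of 10 had an unadjusted p under 0.05 (5.69% of all). There 8 of 10 were below 0 (58.7% of all), and 3 did not overlap, all lower (2.9% of all; 1.6% lower and 1.3% higher). These counts include the dim Epha5 probe, which was not well above background on any homozygous array. It and the Epha3 probe entered the test through the genotypes in which they were higher, which favours a fall. The other probes without overlap were both of Epha7. Against the midpoint 0 of 10 were called (0.0% of all), 2 were below 0 (42.2% of all) and 1 of 10, the dim Epha5 probe, had an unadjusted p under 0.05 (7.51% of all). The midpoint of that probe rests on homozygous signals not well above background, so its p is not read as a result. The comparisons share arrays, so their counts are not independent of each other.

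**Figure D3:**
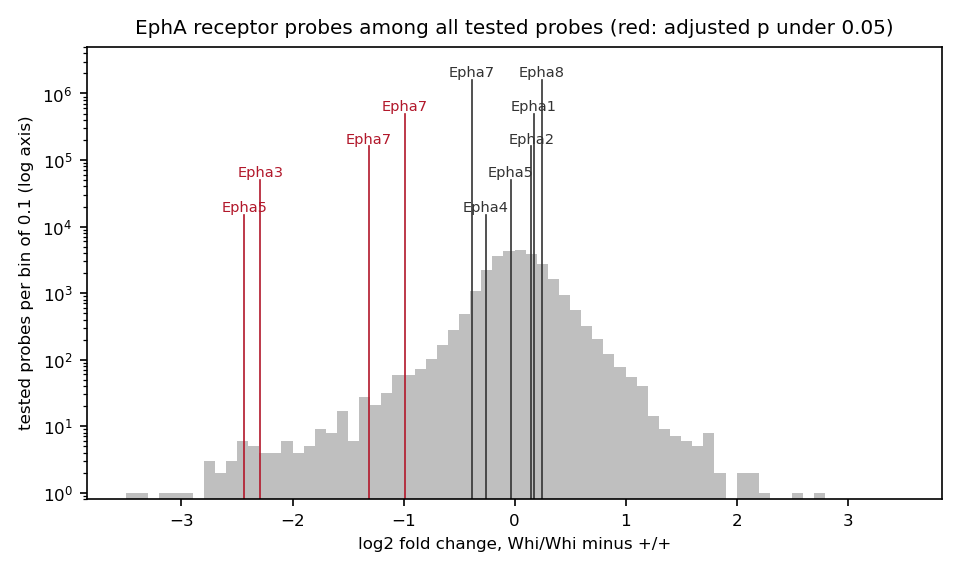
Homozygous minus wild-type log2 fold change of all 27569 tested probes (grey bars, bins of 0.1, log vertical axis; values beyond the axis are drawn at its ends) with the 10 EphA probes as lines whose heights have no meaning. The 4 called probes, in red, lie in the left tail at -0.99 or below, and the other 6 lie between -0.38 and 0.24. The called Epha5 probe is drawn at its measured -2.43, although its homozygous signals were not well above background.

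The 4 calls were compared within the sets of arrays that could differ technically. Within slides 1, 2 and 3, homozygotes minus wild type was -3.57, -2.08 and -2.19 for Epha3, -1.45, -0.87 and -0.81 for the leading Epha7 probe, -1.78, -1.36 and -0.96 for the second, and -3.21, -2.13 and -2.59 for the dim Epha5 probe, whose homozygous signals were not well above background. With slide as a block all 4 stayed called. At position 3, the only position with both genotypes (2 homozygotes and 1 wild type), the differences were -2.31, -0.97, -1.17 and -2.0 in the same order. With position as a block none of the 4 was called (adjusted p = 0.329, 0.29, 0.531 and 1.0). Titles carry a number of unstated meaning, and with that number as a block none was called either (-2.42, -0.94, -1.35 and -2.03, adjusted p = 0.0889, 0.0897, 0.0978 and 0.114). With normexp background correction, which adds an offset of 50 to every signal, Epha3 (-1.08, adjusted p = 0.0485) and the leading Epha7 probe (-0.93, adjusted p = 0.00975) passed, and the second Epha7 probe (-0.90, adjusted p = 0.162) and the dim Epha5 probe (-0.81, adjusted p = 0.346) did not.

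**Figure D4:**
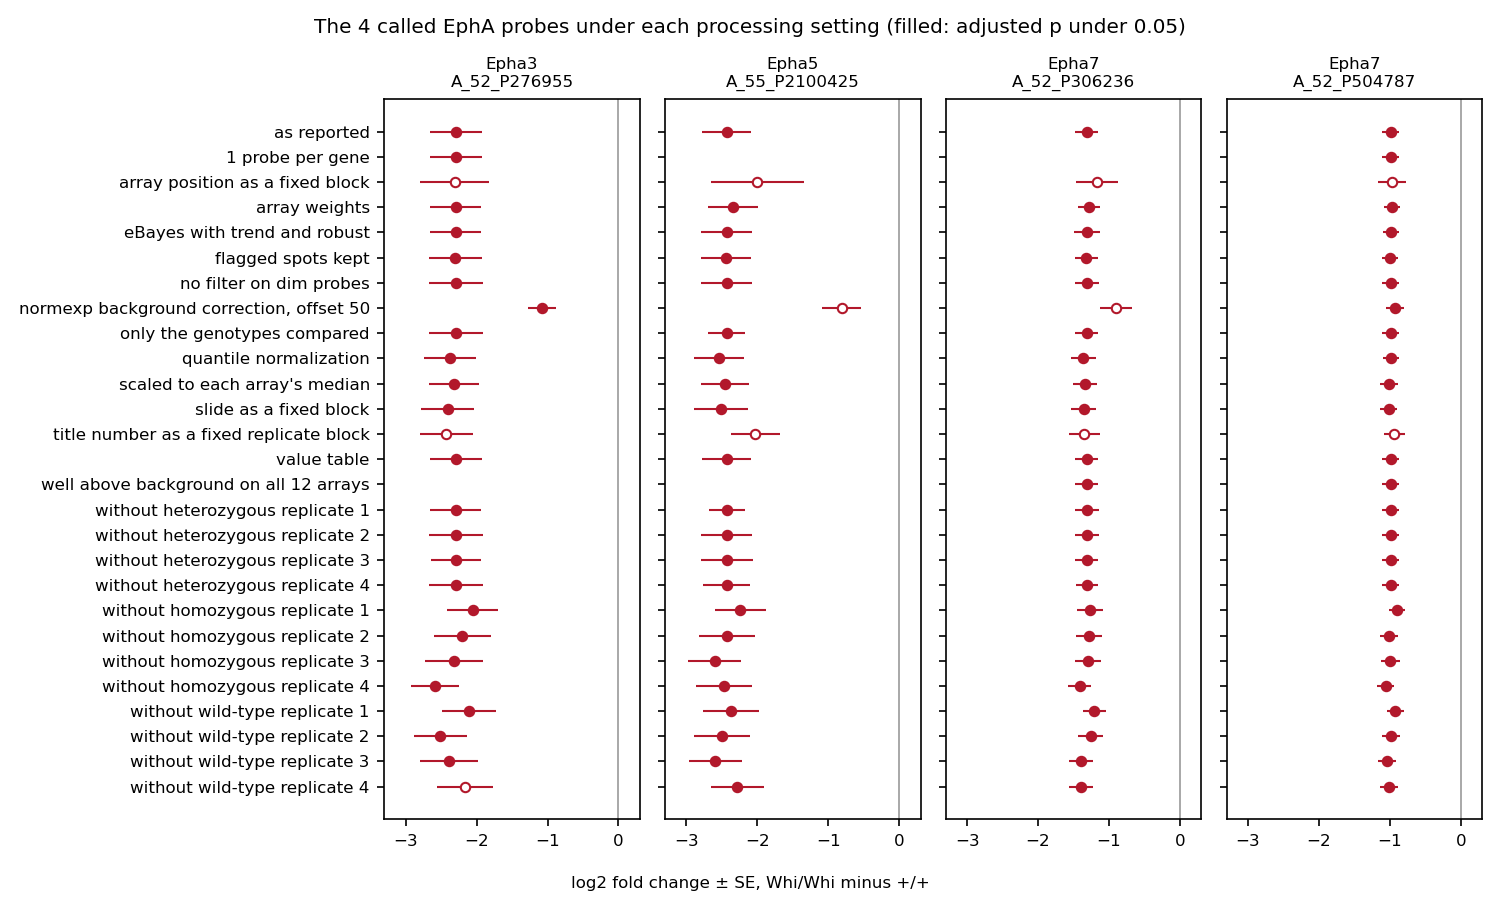
Homozygous minus wild-type log2 fold change (± SE) of the 4 called EphA probes under each processing setting; filled points had an adjusted p under 0.05, and a setting without a point did not test that probe. All points lie below 0, and the open points are array position or title number as a block, normexp for 2 dim probes, and Epha3 without wild-type replicate 4.

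The ligands of these receptors were not called. Of 5 ephrin-A ligands, 0 were called in homozygotes by limma and 0 had an unadjusted p under 0.05, with a median log2 fold change of 0.02 and the smallest p in Efna3 (0.29 ± 0.21, adjusted p = 0.501) and Efna2 (-0.31 ± 0.28, adjusted p = 0.61). Of 8 EphB receptors and ephrin-B ligands, 0 were called and 1 had an unadjusted p under 0.05. That was Ephb1, a receptor of axon guidance, at 0.60 ± 0.15 (adjusted p = 0.0777), followed by Ephb2 at 0.29 ± 0.13 (adjusted p = 0.306). Of 35 genes of Eph signalling and turnover, such as the ephexin and Vav exchange factors, the adaptors Nck1 and Nck2 and the ephrin-cutting protease Adam10, 0 were called and 7 had an unadjusted p under 0.05, against 16.5% of all tested probes. The smallest were Abl1, a kinase (0.21 ± 0.07, adjusted p = 0.193), and Nck1 (-0.26 ± 0.10, adjusted p = 0.219).

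Other genes of the regions in which EphA receptors act were called in part. Of all tested probes in the limma fit, 0.769% were called lower, 0.446% were called higher and 16.5% had an unadjusted p under 0.05. The lists were chosen with earlier results of these data known, so setting their counts beside these shares is no independent test. Of 13 somite genes 1 was called lower, Meox2, a homeobox factor of somites and limb muscle (-1.51 ± 0.22, adjusted p = 0.00776), and the median was -0.29. Of 13 limb and face mesenchyme genes 4 were called lower: Alx1 (-2.13 ± 0.21, adjusted p = 0.000632), Prrx1 (-1.82 ± 0.30, adjusted p = 0.0136), Twist1 (-0.93 ± 0.12, adjusted p = 0.00428) and Lhx9 (-0.97 ± 0.19, adjusted p = 0.0365), with a list median of -0.29. In value, 8 of these 13 genes were lower and 5 were higher. Of 12 early neuron genes 2 were called lower, Pou4f1 (-0.85 ± 0.15, adjusted p = 0.0181) and Isl1 (-0.80 ± 0.15, adjusted p = 0.0322), both factors of sensory neurons, with a list median of -0.69. Of 16 hindbrain segment genes 0 were called by limma and 8 had an unadjusted p under 0.05, in both directions (median -0.30), the smallest in Fgf3 (1.61 ± 0.38, adjusted p = 0.0722) and Cyp26c1 (-1.13 ± 0.28, adjusted p = 0.0815). Of 9 midbrain genes 0 were called and 1 had an unadjusted p under 0.05, En1 (0.77 ± 0.33, adjusted p = 0.274; list median 0.05); Pax7 came next (0.24 ± 0.21, adjusted p = 0.589).

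The summed level of the neuron list, with the 75th percentile of the array as the unit, was 4.75 to 6.89 in wild type, 3.54 to 5.84 in heterozygotes and 3.41 to 4.98 in homozygotes. For the mesenchyme list it was 26.0 to 30.2, 21.7 to 27.9 and 19.8 to 23.5, so that wild type and homozygotes did not overlap. For the somite list it was 16.9 to 19.5, 14.5 to 22.8 and 13.8 to 15.1, and wild type and homozygotes did not overlap there either. Of single tested probes, 13.7% did not overlap between these genotypes. All 13 mesenchyme probes, all 12 neuron probes and all 13 somite probes were well above background on at least 8 of 12 arrays. Their part in the change of Epha3, Epha5 and Epha7 was not tested.

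Markers of tissue outside the embryo proper also varied between embryos. All 6 yolk sac and visceral endoderm markers (Afp, Apoa1, Apoa4, Ttr, Apob and Rbp4), several of which the liver bud also makes, were detected on 11 of 12 arrays or more. Their summed level was 5.87 to 29.6 in wild type, 13.0 to 29.5 in heterozygotes and 4.13 to 70.3 in homozygotes, overlapping in all 3 genotypes, and 0 of 6 were called by limma (0 with an unadjusted p under 0.05). All 6 were higher in value than in wild type in homozygotes (median log2 fold change 0.49) and in heterozygotes (median 0.85). Over the 12 arrays, after the mean of each genotype was taken off, the log2 of this sum had r = 0.727 with Epha1, 0.606 with Epha2, -0.691 with Epha3 and -0.386 with the leading Epha7 probe. It had -0.0816 with the other called Epha7 probe, -0.628 with the third and -0.584 with Epha8. With Epha4 it had 0.325, with the bright Epha5 probe 0.132, and with the dim one, not well above background in homozygotes, -0.69. Homozygous replicate 1, with the highest sum, had the lowest Epha3 level of all 12 arrays, and wild-type replicates 1 and 4, with the lowest sums of their genotype, the highest Epha3 levels. Homozygous replicate 3, with the lowest sum of all (4.13), had an Epha3 level of -6.29, below the -5.48 of homozygous replicate 4 (sum 8.48). The part of this tissue in the result was not tested. The trophoblast marker Tpbpa and the decidua marker Prl8a2 were well above background on 0 of 12 arrays. The other markers of both lists with a probe were detected. The trophoblast markers Prl3d1, Ascl2, Hand1 and Gcm1 and the decidua markers Dcn and Hsd11b2 were well above background on all 12 arrays, and Pgr on 8. All 15 markers of the embryo proper were well above background on all 12. Of the tested markers, 0 of 4 of trophoblast were called (0 with an unadjusted p under 0.05), 1 of 3 of decidua was called lower (Pgr, -0.96 ± 0.20, adjusted p = 0.043), and 2 of 15 of the embryo proper, Twist1 and Prrx1, which the mesenchyme list also holds.

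The genes most like each receptor across embryos were looked for among 15286 named genes, by Pearson's r over the 12 arrays, which mixes differences between genotypes with differences within them. The highest r among so many genes is large partly by selection, and no r here was tested. For Epha3 they were Meox2 (r = 0.96), Neurog2, a proneural factor (0.957), and Lrrn3 (0.95), and within genotypes these values were 0.812, 0.874 and 0.754. For the leading Epha7 probe they were Lpar4 (0.963), Glrb (0.953) and Vit (0.95), with 0.611, 0.733 and 0.271 within genotypes. For Epha1 they were Hpn (0.926), Fga (0.919) and Dnajc22 (0.90), with 0.939, 0.919 and 0.885 within genotypes, the first of these a protease and the second a fibrinogen chain of liver cells. For Epha2 they were Epha1 itself (0.889), Pnldc1 (0.878) and Pgap6 (0.87), with 0.901, 0.863 and 0.869 within genotypes. Epha1 and Epha2 varied together among embryos of one genotype (r = 0.901 within genotypes), while Epha3 ran opposite to both (-0.912 and -0.873).

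For Epha4 the most like were Hnrnph2 (0.962), Pus10 (0.96) and Zfp317 (0.953), with 0.959, 0.95 and 0.945 within genotypes. For Epha8 they were Megf6 (0.936), Nova1 (0.93) and Tfap2e (0.892), with 0.932, 0.35 and 0.897 within genotypes. For the bright Epha5 probe they were Psme3 (0.985), Srek1 (0.977) and Tmem239 (0.976), with 0.987, 0.983 and 0.978 within genotypes. Over the 12 arrays the bright and the dim Epha5 probe had r = -0.0673, whereas the dim Epha5 probe had 0.831 with Epha3 and 0.865 with the leading Epha7 probe. Within genotypes these last values were 0.238 and 0.11, so that they rest mostly on the differences between genotypes. The called Epha7 probes had r = 0.978 over all arrays and 0.835 within genotypes.

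Epha6 and Epha10, the remaining EphA receptors with a probe, were measured once each. Epha6 was well above background on 0 of 12 arrays and was not tested. Epha10 had a homozygous change of 0.35 ± 0.27 (adjusted p = 0.545).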

How the data were processed

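RNA of 12 embryos was labelled with Cy3 and read with Agilent Feature Extraction 10.7.3.1, per the file headers; limma is also named in the submitters' processing notes, without its version. The deposited intensity of a spot is its processed signal, corrected for background within the array by that software and not scaled between arrays, per the file headers; the deposited value table held the same intensities. Groups are the genotype labels and replicates are numbered in accession order. Members and gene lists were chosen with earlier results of these data known.

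From these values, control spots (1377) and spots flagged as non-uniform or outliers (171 to 386 per array) were left out. Each array was scaled to its 75th percentile on the log2 scale. Through accessions, 26055 of 39429 probes were named in the RefSeq table of GRCm38.p6; the arrays were designed on a different build, so no probe positions are given, and the only coordinates are those of the RefSeq promoter windows. The level of Chd7 itself is not analysed here. Probes that every array of some genotype detected well above background (27569) were fitted one by one with limma 3.58.1 in R 4.3.3 (lmFit, eBayes; 1 mean per genotype, 4 comparisons) and adjusted by Benjamini-Hochberg, after a test on simulated data. The floored folds of the dim Epha5 probe compare the brighter mean with the dim group's mean of a floor. On each array the floor is the larger of the probe's own signal and the lowest signal detected well above background. That lowest signal can come from any probe, so it is not this probe's own detection limit. Differences between probes of a gene were tested with an exact permutation test (scipy 1.17.1). For each list the genes called are named, or otherwise the 2 with the smallest p; the genes like a receptor are the 3 with the highest r. Same-numbered titles were not treated as pairs in the main fit. The deviations of such pairs from their genotype means had a mean correlation of 0.0304 (11 pairs, -0.336 to 0.283). The 37 pairs with unlike numbers had -0.00864, and pairs on the same slide 0.0434. With so wide a range this measure cannot decide whether the number marks pairs. Alternatives covered background correction, scaling, filters, probe choice, flags, blocks, variance model, weights, the value table and leaving out arrays. Normexp used the median spot signal. The number of arrays limits the precision.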

Additional observations from a re-analysis of the deposited data

Results flagged for a closer look

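Of 30 groups of 4 arrays (10 EphA probes in 3 genotypes), 2 had an array whose gap to the nearest other was above Dixon's 95% critical value, where chance flags about 1 group in 20. Epha4 on heterozygous replicate 2 was at 0.14, and the other heterozygotes lay between -0.42 and -0.37. The dim called Epha7 probe, A_52_P306236, was at -4.75 on homozygous replicate 4, and the other homozygotes lay between -5.19 and -5.12. Without that replicate the homozygous change of this probe was -1.42 (limma adjusted p = 0.00414).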

How the results depend on the processing

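The 4 EphA probes called lower in homozygotes than in wild type had a change below 0 under each alternative that tested them. The count of called EphA probes was 4 with quantile or median scaling, flagged spots kept, no filter, slide as a block, array weights, another variance model, the value table and a fit of only the genotypes compared. It was 2 with normexp, 2 with 1 probe per gene and 2 when probes had to be well above background on all 12 arrays; the last 2 settings test fewer EphA probes. It was 0 when title number was a replicate block, and likewise 0 when position was one, and the cause was not tested. Homozygotes and wild type shared only title numbers 50 and 53 and only position 3, and numbers 33 and 69 held a homozygote alone, so few arrays could be compared within these blocks. Leaving out each array gave 3 to 4. Over all probes the count of calls was 335 (123 higher), 91 with normexp (9 higher), 211 with no filter (60 higher), 25 with position and 22 with title number as a block, 515 when the third genotype was left out, 578 with array weights, and 117 to 492 with an array left out. The lowest of these, 117, came without wild-type replicate 4, where Epha3 lost its call. In the other comparisons no EphA probe was called under any alternative.

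Signs of values that were not called turned as follows. Epha4 in homozygotes was 0.058 with position as a block, and the bright Epha5 probe was 0.090 with normexp, 0.0025 with quantile scaling and -0.14 to 0.080 with an array left out. From the midpoint, heterozygotes were at -0.12 (position) and -0.043 (normexp) for Epha3, at -0.080 (normexp), -0.010 (quantile) and -0.0077 to 0.16 (an array left out) for Epha7 probe A_52_P306236, and at -0.0036 (position) for the leading Epha7 probe.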
